A study of Mus musculus with 21 samples.

Results

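The 8 genes Armcx4, Bex2, Ajuba, Pdzrn3, Pstpip2, Dpep1, Gjb6 and Irx3 were followed in mouse lung because their transcript levels at 3 weeks after bleomycin, set against controls of the same strain, moved most in C57BL/6 mice or moved differently there than in another strain. They are 8 of the 12393 genes with a probe set of their own on the arrays, and 11 of the 22626 probe sets carry their names. The 3 week and control arrays were the ones that chose the genes, with no numerical threshold, so values from those arrays are given as a description and carry no test. Of the 11 probe sets, 9 passed the filter on dim signal. The 2 that did not are both Pstpip2 probe sets, which read between 2.14 and 23.6 units on all 21 arrays.

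The series measured strain differences in the lung response to bleomycin, a DNA-damaging drug that scars the lung. Each of the 21 arrays carried pooled RNA of several mice, taken from the whole right lung, and the drug had been delivered by osmotic minipump. C57BL/6 mice were studied at 3 weeks (2 arrays), at 6 weeks (1 array, female, 125 mg/kg), when moribund (2 arrays) and as controls (2 arrays). A/J mice were studied at 3 weeks (4 arrays: males at 80 and at 100 mg/kg, females at 100 and at 125 mg/kg), at 6 weeks (2 arrays) and as controls (2 arrays). C3H/HeJ mice were studied at 3 weeks, at 6 weeks and as controls, with 2 arrays each. Every group of 2 held 1 male and 1 female array, and the treated males had 100 mg/kg and the treated females 125 mg/kg, so sex and dose cannot be told apart among treated arrays of these groups. What the control mice received, the age of the mice and the time at which moribund mice were taken are not stated in the labels. Values are array intensities in arbitrary units after quantile normalization, and wherever 2 are listed the male array comes first. Differences are on the log2(intensity + 16) scale, called the offset scale below, with the standard error of the fit. Multiples and fractions of a control level are taken from these differences. With 16 added to both levels, they lie nearer 1 than ratios of the listed units. Whether the arrays of 2 groups overlap is given only as a description. Groups this small can separate without a true difference, and the share of all probe sets that do so was not counted. Each array is 1 pool, so the p-values measure the spread between pools and not between single mice.

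The alveolar type 2 cell gene Sftpc read 6041 to 7395 units, the club cell gene Scgb1a1 6372 to 7760.4 units and the alveolar type 1 cell gene Ager 2414 to 4305 units over the arrays, so all 3 defining transcripts of lung were bright on every array. Median deposited intensity ran between 58.5 and 111 units, correlations between arrays ran between 0.931 and 0.980, and the 3′ to 5′ ratio of Gapdh, a sign of RNA integrity, was 2.09 on the female 6 week C3H/HeJ array and between 0.770 and 1.34 on the others. No pair of arrays held identical values.

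Bex2 and Armcx4 belong to a cluster of X-linked genes that placental mammals gained together. Bex proteins are small, largely unstructured adaptors first described in brain, where relatives bind a neurotrophin receptor, and several Armcx proteins sit on mitochondria and affect their transport in neurons. Ajuba is a LIM-domain scaffold of cell junctions that holds back the Lats kinases of the Hippo pathway, Pdzrn3 is a ubiquitin ligase of the neuromuscular synapse and of vessel growth, and Pstpip2 is a membrane-bending F-BAR protein of macrophages and neutrophils whose loss in mice causes sterile bone inflammation. Dpep1 is a membrane dipeptidase that splits cysteinyl leukotrienes and glutathione products, Gjb6 is a connexin of gap junctions, and Irx3 is an Iroquois homeobox transcription factor active in lung development.

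Promoter sequence is shown for the X-linked genes because Bex2 was lower and Armcx4 higher in C57BL/6 lungs at 3 weeks than in controls and both share a stretch of sequence in their promoter entries. The stretches below, from RefSeq on GRCm38.p6, are chrX:136068271-136068379 on the minus strand for Bex2, chrX:134686280-134686390 on the plus strand for Armcx4 and chrX:136270073-136270181 on the plus strand for their relative Bex3. Capitals mark runs of at least 9 bases that all 3 share.
Bex2: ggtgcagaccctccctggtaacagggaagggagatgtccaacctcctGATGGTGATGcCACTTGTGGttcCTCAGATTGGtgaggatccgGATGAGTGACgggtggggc
Armcx4: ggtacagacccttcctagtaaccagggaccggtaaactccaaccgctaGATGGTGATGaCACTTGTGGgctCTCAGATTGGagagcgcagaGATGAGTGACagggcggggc
Bex3: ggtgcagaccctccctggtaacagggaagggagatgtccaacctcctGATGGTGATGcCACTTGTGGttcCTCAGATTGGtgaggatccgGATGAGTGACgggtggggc
Counted from the transcript start of the promoter table, the window ends 35 bases before the start of Bex2, 129 before that of Armcx4 and 72 before that of Bex3. For Armcx4 this start (134686519) lies 869 bases inside the gene span given below, so the Armcx4 window lies downstream of the outermost annotated start of that gene, whereas for Bex2 and Bex3 the 2 starts are the same base. Bex2 and Armcx4 were identical at 87 of 115 columns of their best local alignment (75.7%), 10 of which held a gap, and the Bex2 and Bex3 windows were identical over all 109 bases. The 4 capital runs, which do not overlap each other, were read from the alignment of Bex2 and Armcx4, so their presence in these 2 was given. They were searched on both strands in the 32851 RefSeq promoters of the same length. How often other runs of their lengths occur there was not counted, so the shares do not mark these runs as unusual. GATGGTGATG was in 0.0913%, CACTTGTGG in 0.228%, CTCAGATTGG in 0.0791% and GATGAGTGAC in 0.0609%. The first pair with 1 base between them, GATGGTGATGNCACTTGTGG, was in 3 promoters (0.00913%), those of Armcx4, Bex2 and Bex3. Of the 16 listed Bex, Armcx and Tceal relatives, 15 had a promoter entry, and among them only Bex3 held any of the 4 runs. The Bex2 and Bex3 promoters had 99.0% of 199 aligned bases in common.

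Bex2 (X:136066565-136068236) lies in the cluster 1.37 Mb from the end of Armcx4 (X:134685650-134697775). In C57BL/6 lungs Bex2 read 316 and 296 units in controls, 52.7 and 66.4 at 3 weeks, 23.4 at 6 weeks and 39.1 and 49.3 in moribund mice. Every bleomycin array of this strain lay below both control arrays, and the 6 week array was the lowest of all 21. At 3 weeks the C57BL/6 level was 0.234 of the control level on the offset scale, a log2 difference of -2.10 ± 0.23 (SE). In A/J lungs Bex2 read 245 and 243 units in controls, 162, 209.9, 253 and 198 at 3 weeks and 127 and 199 at 6 weeks. The 3 week and control arrays of A/J overlapped, with a difference of -0.25 ± 0.20. C3H/HeJ lungs read 209.9 and 176 units in controls, 109 and 74.4 at 3 weeks and 143 and 118 at 6 weeks, with the 3 week arrays below both controls by -0.97 ± 0.23, so the lower level of Bex2 at 3 weeks was not confined to C57BL/6. In a bulk sample, fewer cells that hold a transcript and less of it per cell cannot be told apart.

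Control levels of Armcx4 differed between strains, on arrays that also helped to choose the gene. It read 44.2 and 51.4 units in C57BL/6 controls, 187 and 239 at 3 weeks, 164 at 6 weeks and 138 and 144 in moribund C57BL/6 mice. The control arrays were the 2 lowest of the 21. At 3 weeks the level was 3.57 times that of controls on the offset scale (log2 difference 1.83 ± 0.16). A/J lungs read 168 and 172 units in controls, 113, 129, 152 and 129 at 3 weeks and 144 and 187 at 6 weeks, and all 4 of the 3 week arrays lay below both controls (-0.35 ± 0.14). C3H/HeJ lungs read 230.3 and 194 units in controls, 182 and 211 at 3 weeks and 219 and 256 at 6 weeks, with overlap between 3 weeks and control (-0.10 ± 0.16). Control C57BL/6 lungs were below control A/J lungs by -1.54 and below control C3H/HeJ lungs by -1.84 on the log2 scale, while the C57BL/6 arrays at 3 weeks lay above those of A/J and overlapped those of C3H/HeJ.

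In C57BL/6 lungs at 3 weeks the tested relatives in the X-linked group moved less than Bex2 and Armcx4, which were chosen for their change there. This did not hold in A/J lungs, where Armcx1 differed from controls by -0.70 and Bex3 by 0.43 without passing (limma, adjusted p = 0.2173 and 0.1241). Of 16 relatives listed (Bex, Armcx and Tceal genes), 11 were on the array and 9, with 12 probe sets, were bright enough to test at 3 weeks. In C57BL/6 lungs 2 probe sets fell and none rose, with 3 of the 12 at an unadjusted p under 0.05. Of all 15084 probe sets tested, 5.06% fell and 5.71% rose. Bex4 read 127 and 124 units at 3 weeks, against 255 and 255 in controls, and fell by 0.94 on the log2 scale (limma, adjusted p = 0.001018). Tceal1, of a family named for likeness to a transcription elongation factor, fell by 0.58 (limma, adjusted p = 0.03411). Bex3, whose promoter window matches that of Bex2, read 1018 and 859 units at 3 weeks, against 739 and 776 in controls, a difference of 0.30 ± 0.13 that did not pass the test (limma, adjusted p = 0.18). No probe set of the group passed in A/J or C3H/HeJ lungs by limma, with 4 and 5 of the 12 at an unadjusted p under 0.05. The fall of Bex4 in C57BL/6 lungs was larger than its change in A/J lungs by -0.99 ± 0.21 (limma, adjusted p = 0.03087), where 1.08% of the 15084 probe sets tested passed in either direction. Against C3H/HeJ the difference for Bex4 was -0.54 (limma, adjusted p = 0.2791).

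**Figure D1:**
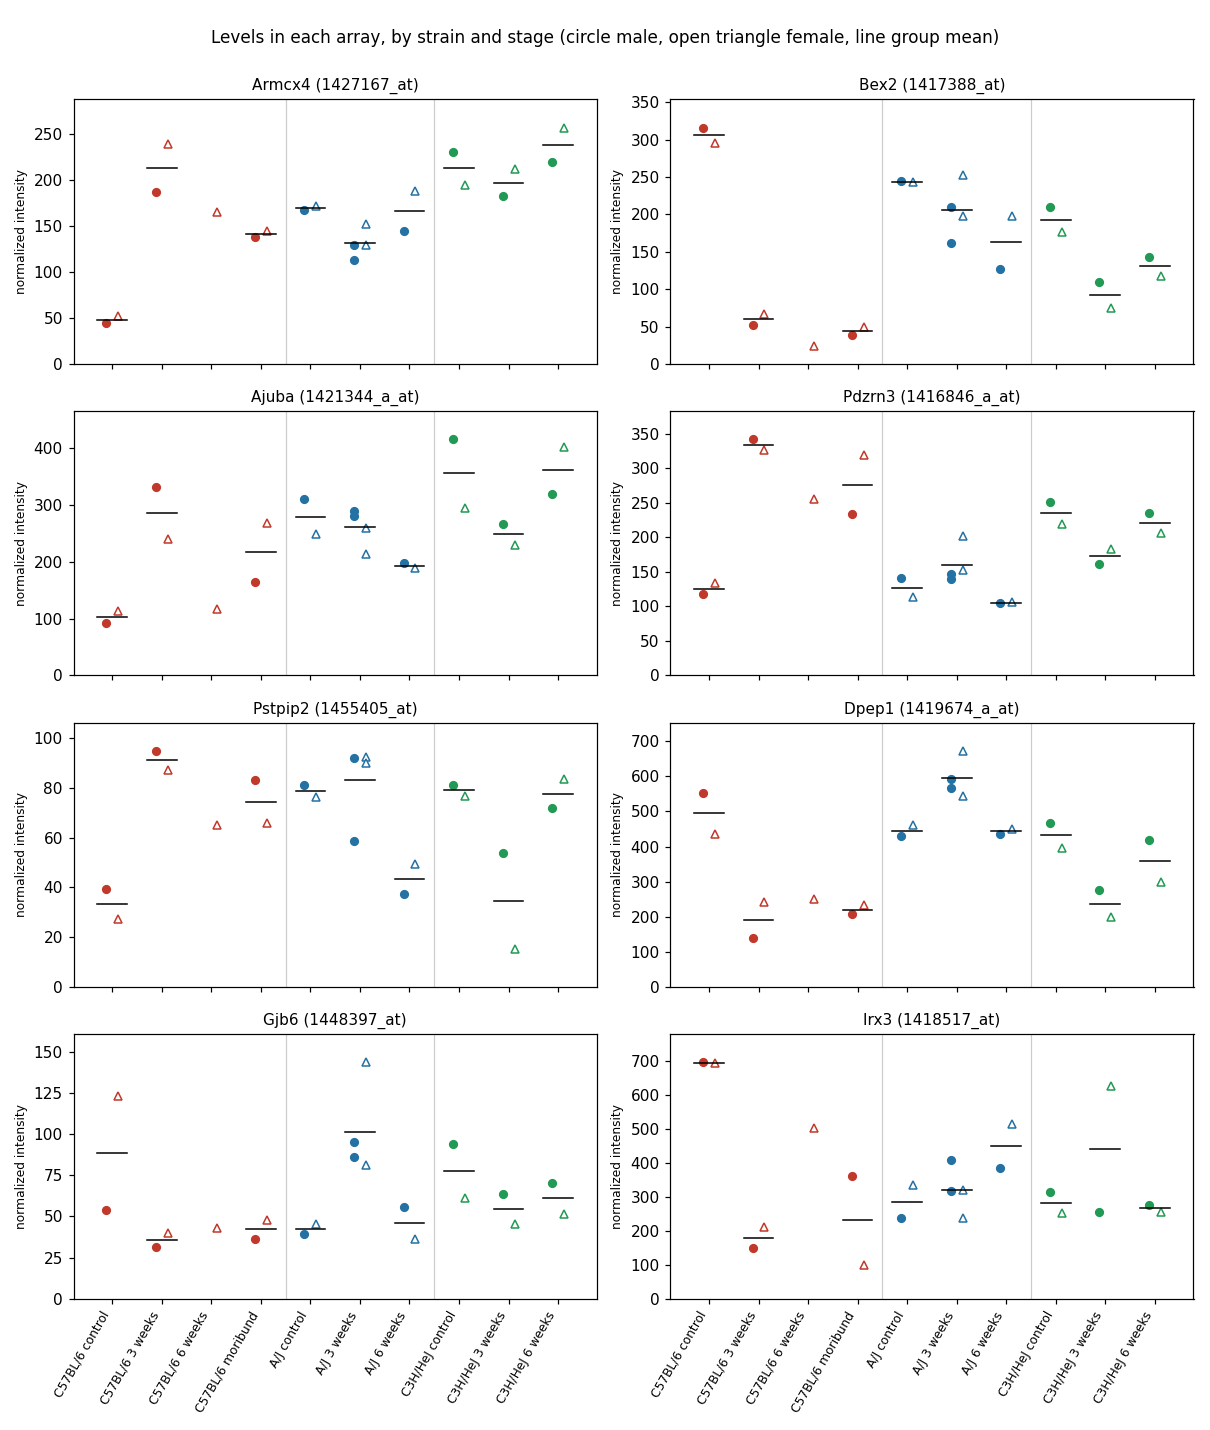
Normalized intensity (linear vertical axis, arbitrary units) of each gene on every array, grouped by strain and stage; circles are male arrays, open triangles female arrays and lines group means, and Dpep1 is shown by its first probe set. Bex2, Dpep1, Irx3 and Gjb6 sit lower and Armcx4, Ajuba, Pdzrn3 and Pstpip2 higher on both 3 week C57BL/6 arrays than on both C57BL/6 controls.

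Ajuba (14:54567469-54577661), the junction scaffold, followed Armcx4 in having its lowest levels in C57BL/6 controls. It read 92.8 and 114 units there, 332 and 239.9 at 3 weeks, 117 at 6 weeks and 165 and 269 in moribund C57BL/6 mice. Both 3 week arrays were above both controls, at 2.51 times the control level on the offset scale (1.32 ± 0.23). The single 6 week array lay just above the controls. A/J lungs read 310.0 and 249 units in controls, 289, 281, 214 and 260.3 at 3 weeks and 198 and 189 at 6 weeks, with overlap between 3 weeks and control (-0.09 ± 0.20). C3H/HeJ lungs read 416 and 296 units in controls, 266 and 230.1 at 3 weeks and 320.0 and 402 at 6 weeks, and both 3 week arrays lay below both controls (-0.48 ± 0.23). Control C57BL/6 lungs were below control A/J lungs by -1.30 and below control C3H/HeJ lungs by -1.62, and at 3 weeks the arrays of the 3 strains overlapped.

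Of 13 listed relatives of Ajuba and effectors of the Hippo pathway, 12 were on the array, and 11 genes with 24 probe sets were tested. In C57BL/6 lungs at 3 weeks 2 of the 24 probe sets rose and none fell, where 5.71% of all 15084 probe sets tested rose and 5.06% fell. Ccn2, a secreted matrix protein and a classical Hippo target also known as connective tissue growth factor, read 2589 and 2368 units at 3 weeks, against 1145 and 829 in C57BL/6 controls, and rose by 1.33 (limma, adjusted p = 0.000103). Ankrd1, another such target, rose by 0.79 on 1 of its probe sets (limma, adjusted p = 0.03664). Its other probe set did not pass (0.51, limma, adjusted p = 0.09011). Neither tested probe set of Ccn1, also listed, passed (0.69 and 0.79, limma, adjusted p = 0.2098 and 0.2201). The change of Ccn2 in C57BL/6 lungs exceeded that in A/J lungs by 0.92 and that in C3H/HeJ lungs by 1.06, neither past the test (limma, adjusted p = 0.06319 and 0.08917).

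Pdzrn3 (6:101149607-101377897) had much the same control level in C57BL/6 and A/J lungs. It read 117 and 133 units in C57BL/6 controls, 342 and 326 at 3 weeks, 255 at 6 weeks and 234 and 319 in moribund mice, so that all 5 bleomycin arrays of C57BL/6 lay above both controls. The 3 week level was 2.48 times that of controls on the offset scale (1.31 ± 0.19). A/J lungs read 141 and 113 units in controls, 147, 139, 153 and 203 at 3 weeks and 105 and 106 at 6 weeks, with overlap between 3 weeks and control (0.30 ± 0.16). C3H/HeJ controls were higher, and these lungs read 252 and 219 units in controls, 162 and 183 at 3 weeks and 235 and 207 at 6 weeks, with both 3 week arrays below both controls (-0.42 ± 0.19). The change in C57BL/6 thus exceeded that in C3H/HeJ by 1.73 ± 0.26 and that in A/J by 1.01 ± 0.25. Its listed relatives Lnx1 and Lnx2, ubiquitin ligases with PDZ domains that were the 2 tested of 4, did not pass at 3 weeks in any strain by limma, with 0 probe sets at an unadjusted p under 0.05.

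Pstpip2 (18:77794550-77882879) is described by its 1 probe set above the dim filter. It read 39.5 and 27.2 units in C57BL/6 controls, 94.8 and 87.1 at 3 weeks, 64.9 at 6 weeks and 83.3 and 65.6 in moribund mice. All bleomycin arrays of this strain exceeded both controls. The 3 week level was 2.18 times that of controls on the offset scale (1.13 ± 0.30). A/J lungs read 81.1 and 76.4 units in controls, 91.8, 58.7, 92.4 and 90.1 at 3 weeks and 37.3 and 49.5 at 6 weeks, with overlap between 3 weeks and control (0.05 ± 0.26) and both 6 week arrays below. C3H/HeJ lungs read 80.9 and 76.9 units in controls, 53.7 and 15.1 at 3 weeks and 71.8 and 83.4 at 6 weeks. Both 3 week C3H/HeJ arrays lay below the controls (-1.03 ± 0.30), and without the female 3 week array the difference was -0.44, without the male one -1.63. The difference between strains in this change, 2.15 ± 0.42 for C57BL/6 minus C3H/HeJ, thus drew on a lower level in C3H/HeJ as well as a higher one in C57BL/6.

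Relatives and partners of Pstpip2, namely F-BAR proteins and the PEST-type phosphatases that PSTPIP proteins bind, had 8 genes and 12 probe sets tested. In C57BL/6 lungs at 3 weeks 4 probe sets rose while none fell, where 5.71% of all 15084 probe sets tested rose. Pstpip1, the closest relative of Pstpip2, read 142 and 146 units at 3 weeks, against 48.9 and 46.6 in controls, and rose by 1.33 (limma, adjusted p = 0.001528). Ptpn18, a PEST-type phosphatase, rose by 0.68 (limma, adjusted p = 0.01109), and the F-BAR kinase Fes rose by 0.51 and 0.81 on its 2 called probe sets (limma, adjusted p = 0.04258 and 0.02968). Macrophage markers moved with these genes: 6 of 8 rose in C57BL/6 lungs at 3 weeks, and their summed level was 10855 to 11946 units at 3 weeks, against 7996 to 8455 in controls. Neutrophil markers did too, with 5 of 5 tested rising and a sum of 3795 to 4004 units at 3 weeks, against 1184 to 1582 in controls. The part of these cells in the levels of Pstpip2 and its relatives was not tested. In A/J lungs, where the neutrophil sum was 5488 to 9760 units at 3 weeks, against 1249 to 1398 in controls, 3 of the 4 Pstpip2 arrays at 3 weeks lay above both controls and the male array at 100 mg/kg below them. In C3H/HeJ lungs, where Pstpip2 was lower at 3 weeks than in controls, 5 of 8 macrophage and 4 of 5 neutrophil markers rose. Their sums there were 10375 to 11603 and 4257 to 4474 units at 3 weeks, against 9563 to 10358 and 1358 to 2364.5 in controls.

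**Figure D2:**
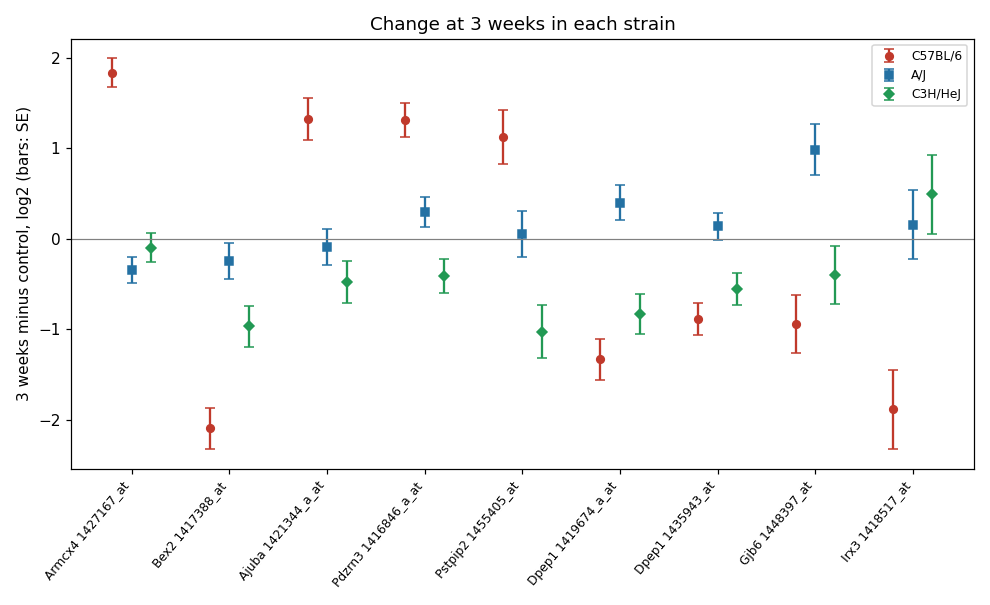
Difference between 3 week and control lungs (log2, vertical axis) for the 9 probe sets above the dim filter in C57BL/6, A/J and C3H/HeJ; points are fitted values and bars are standard errors. C57BL/6 points lie furthest from 0 for all but Gjb6, whose A/J point (0.99) is as far above 0 as its C57BL/6 point (-0.94) is below.

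Dpep1 (8:123186235-123201812), the dipeptidase, was measured by 2 probe sets, both lower at 3 weeks than in controls in C57BL/6 and C3H/HeJ lungs but not alike in A/J lungs. The first, the brighter of them, read 553 and 436 units in C57BL/6 controls, 141 and 242 at 3 weeks, 251 at 6 weeks and 207 and 233 in moribund mice. The second read 398 and 454, 184 and 267, 209 and 207 and 237 units over the same stages. On both, every bleomycin array of C57BL/6 lay below both controls. The 3 week level was 0.397 and 0.540 of the control level on the offset scale (-1.33 ± 0.22 and -0.89 ± 0.17). In A/J lungs the first probe set read 430.3 and 461 units in controls, 568, 592, 673 and 544 at 3 weeks and 436 and 450.3 at 6 weeks, and all 4 of the 3 week arrays lay above both controls (0.40 ± 0.19). The second read 344 and 408, 422, 413, 463 and 364 and 479 and 417 units over those stages, with overlap (0.14 ± 0.15). In C3H/HeJ lungs the first read 468 and 396 units in controls, 275 and 199 at 3 weeks and 419 and 298 at 6 weeks, and the second 408 and 340.1, 257 and 239.9 and 372 and 378 units. Both were lower at 3 weeks than in controls on every C3H/HeJ array (-0.83 ± 0.22 and -0.56 ± 0.17), so the lower Dpep1 level was shared with C3H/HeJ and the difference in change was -0.50 ± 0.32 and -0.33 ± 0.25 for C57BL/6 minus C3H/HeJ. Of 8 genes listed for the Dpep family and glutathione breakdown, 4 were tested, with 1 probe set each, and Lap3, a leucine aminopeptidase, rose in C57BL/6 lungs by 0.90 (limma, adjusted p = 0.002549), with 310.2 and 282 units at 3 weeks, against 138 and 166 in controls.

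Gjb6 (14:57123301-57133611) was not a transcript that responded mainly in C57BL/6. It read 54.1 and 123 units in C57BL/6 controls, 31.3 and 40 at 3 weeks, 42.7 at 6 weeks and 36.6 and 48 in moribund mice. All these bleomycin arrays lay below both controls, but the controls differed from each other more than the male control differed from the treated arrays. The 3 week difference was -0.94 ± 0.32, and it was -0.41 without the female control and -1.46 without the male one. A/J lungs read 39.2 and 45.3 units in controls, 86, 95.2, 144 and 81.4 at 3 weeks and 55.7 and 36.2 at 6 weeks, with all 4 of the 3 week arrays above both controls and a difference of 0.99 ± 0.28. C3H/HeJ lungs read 93.9 and 61.3 units in controls, 63.7 and 45.5 at 3 weeks and 70.3 and 51.6 at 6 weeks, with overlap (-0.40 ± 0.32). The strains thus moved in opposite directions, with a difference in change of -1.93 ± 0.43 for C57BL/6 minus A/J. Of 13 listed connexins, 4 genes with 9 probe sets were tested. None passed in C57BL/6 lungs by limma, with 1 of the 9 at an unadjusted p under 0.05, and 1 probe set passed in A/J lungs, that of Gja1, the main connexin of heart muscle. It read 206, 156, 232 and 200.1 units at 3 weeks, against 68.5 and 119.9 in A/J controls, and rose by 0.99 (limma, adjusted p = 0.01325), while the other Gja1 probe sets, 5 in number, did not pass (-0.01 to 0.39; limma, lowest adjusted p = 0.439). The Gja1 call was lost in the deposited scaling, without a sex term, with 1 probe set per gene, with the A/J 3 week arrays at 100 mg/kg (male) and 125 mg/kg (female) only, and without the male A/J control array, each of which left 0 relatives called in A/J.

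Irx3 (8:91798511-91801654), the Iroquois factor, was highest in C57BL/6 controls. It read 694 and 693 units there, 148 and 209 at 3 weeks, 501 at 6 weeks and 362 and 97.9 in moribund mice. Both 3 week arrays lay below both controls at 0.270 of their level on the offset scale (-1.89 ± 0.44). The single 6 week array lay between, and the moribund arrays differed widely from each other. A/J lungs read 236 and 335 units in controls, 317, 408, 238 and 320.0 at 3 weeks and 384 and 515 at 6 weeks, with overlap between 3 weeks and control (0.16 ± 0.38). C3H/HeJ lungs read 312 and 251 units in controls, 255 and 625 at 3 weeks and 276 and 256 at 6 weeks. The 3 week difference in C3H/HeJ was 0.49 ± 0.44 and turned to -0.21 without the female array. Control C57BL/6 lungs exceeded the controls of A/J and of C3H/HeJ by 1.26 each.

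All 5 other Iroquois genes were on the array, and 3 were tested with 1 probe set each. At 3 weeks in C57BL/6 lungs 2 of the 3 fell, where 5.06% of all 15084 probe sets tested fell. Irx2 read 139 and 214 units at 3 weeks, against 367 and 395 in C57BL/6 controls, and fell by 1.07 (limma, adjusted p = 0.002031). Irx5, the chromosomal neighbour of Irx3, read 158 and 140.3 units at 3 weeks, against 316 and 358 in C57BL/6 controls, and fell by 1.10 (limma, adjusted p = 0.004462). Irx1, the third, differed from controls by -0.33 without passing (limma, adjusted p = 0.2835), and its C57BL/6 change differed from that of A/J by -0.52 (limma, adjusted p = 0.3467). The changes of Irx2 and Irx5 in C57BL/6 differed from those in A/J by -0.88 and -0.95, which did not pass the test (limma, adjusted p = 0.1228 and 0.1502). No Iroquois gene passed in A/J or C3H/HeJ by limma, and none had an unadjusted p under 0.05 there.

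**Figure D3:**
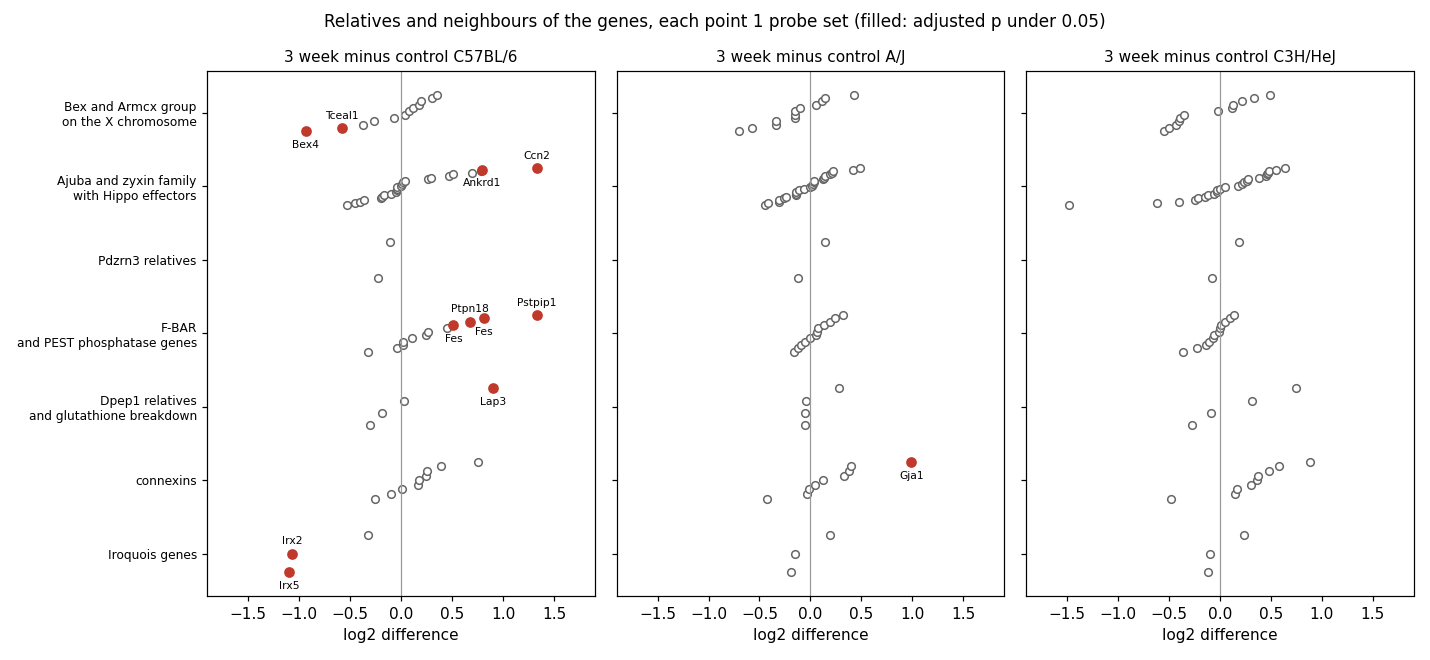
Difference between 3 week and control lungs (log2, horizontal axis) for the 66 tested probe sets of relatives and partners of the 8 genes, by list, in C57BL/6, A/J and C3H/HeJ; each point is 1 probe set and filled points passed at an adjusted p under 0.05. There are 11 filled points in C57BL/6, 1 in A/J and 0 in C3H/HeJ.

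Over all 66 probe sets of these lists, 11 passed in C57BL/6 lungs at 3 weeks (16.7%; 7 rose and 4 fell), where 10.8% of all 15084 probe sets tested passed in either direction, 5.71% higher and 5.06% lower. In A/J lungs 1 of the 66 passed, against 0.855% of all probe sets, and in C3H/HeJ lungs 0 of the 66 passed by limma, with 11 at an unadjusted p under 0.05, against 1.78% of all probe sets. The median difference of the 66 was 0.02 in C57BL/6, -0.00 in A/J and 0.03 in C3H/HeJ, and that of all probe sets was -0.01, -0.01 and -0.02 in the same strains. For the change of C57BL/6 minus that of A/J, 1 of the 66 passed, that of Bex4. For the change of C57BL/6 minus that of C3H/HeJ, 0 of the 66 passed by limma, with 15 at an unadjusted p under 0.05, where 0.152% of all probe sets passed. The count in C57BL/6 was 5 without the male 3 week array, 6 without the female 3 week array and 7 without the female control array.

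Markers of several cell types moved in C57BL/6 lungs at 3 weeks along with the genes that were lower there (Bex2, Dpep1, Irx3 and Gjb6). Endothelial markers fell for 6 of 7, with a sum of 3271 to 4456 units at 3 weeks, against 6733 to 6788 in C57BL/6 controls. Heart muscle markers fell for 6 of 8, with a sum of 1807 to 2331 units at 3 weeks, against 4897 to 5061 in controls, and adipocyte markers for 3 of the 4 tested, with a sum of 498 to 713 units at 3 weeks, against 1775 to 2665 in controls. Type 2 alveolar markers fell for 4 of 6 and airway markers for 4 of 5. Red cell markers fell for 3 of the 3 tested, type 1 alveolar markers rose for 1 and fell for 2 of 6, and fibroblast and matrix markers rose for 2 and fell for 1 of 6. In A/J lungs 0 of 7 endothelial markers passed, with a sum of 6500 to 7154 units at 3 weeks, against 6955 to 7155 in controls, while heart muscle markers fell for 4 of 8, with a sum of 3032 to 3572 units at 3 weeks, against 5397 to 6562 in controls. In C3H/HeJ lungs, where Bex2 and Dpep1 were also lower, 1 of 7 endothelial markers fell, with a sum of 5802 to 7241.5 units at 3 weeks, against 7628 to 7749 in controls, and heart muscle markers fell for 5 of 8, with a sum of 2346 to 3052 units at 3 weeks, against 4586 to 5206 in controls. The part of these cell types in the levels of the 8 genes was not tested.

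Levels in moribund C57BL/6 lungs were set against those in the 6 week lungs of the other strains. These arrays did not enter the rule on 3 week and control arrays that chose the genes. Earlier results of these data were known when the genes were chosen, so full independence of these arrays from the choice is not established. No control level was subtracted, so these are differences in level and cannot show whether a change from control held. In these comparisons strain and stage differ together. Bex2 was lower in moribund C57BL/6 lungs than in both other strains, Dpep1 was lower on at least 1 probe set against both, and Pdzrn3 was higher than in A/J. Against A/J, 4 of 9 probe sets of the 8 genes passed (1 higher, 3 lower; 3 genes), where 13.7% of all 15084 probe sets passed in either direction, 6.26% higher and 7.42% lower. The median difference of the 9 was -0.20, against -0.03 for all probe sets. Bex2 read 39.1 and 49.3 units in moribund C57BL/6 lungs, against 127 and 199 in 6 week A/J lungs, a difference of -1.54 ± 0.23 (limma, adjusted p = 0.000296). Pdzrn3 read 234 and 319 units in moribund C57BL/6 lungs, against 105 and 106 in 6 week A/J lungs, a difference of 1.25 ± 0.19 (limma, adjusted p = 0.000309). The groups did not overlap for either gene.

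The 2 Dpep1 probe sets differed by -0.96 ± 0.22 and -0.96 ± 0.17 between moribund C57BL/6 and 6 week A/J lungs (limma, adjusted p = 0.008824 and 0.001515). The call on the first was lost without the female 6 week A/J array (-0.92, adjusted p = 0.07226) or without the male moribund array (-0.86, adjusted p = 0.06204). In the deposited scaling neither passed (both -0.79; limma, adjusted p = 0.1951 and 0.1883), and the second passed in its other 13 alternatives. Irx3 was lower by -1.15 without passing (limma, adjusted p = 0.0934). Its male moribund array read far above the female one, so that the difference was -2.10 without the male array (limma, adjusted p = 0.00229) and -0.21 without the female one (adjusted p = 0.7878). Pstpip2 differed by 0.61 (limma, adjusted p = 0.199), with both moribund arrays above both 6 week A/J arrays. Armcx4 (-0.20), Ajuba (0.12) and Gjb6 (-0.08) did not pass either.

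Against 6 week C3H/HeJ lungs, 4 of 9 probe sets passed, all lower in moribund C57BL/6 lungs, where 14.2% of all probe sets passed in either direction and 8.07% in the lower direction. The median difference of the 9 was -0.65, against -0.02 for all probe sets. Bex2 read 39.1 and 49.3 units in moribund C57BL/6 lungs, against 143 and 118 in 6 week C3H/HeJ lungs, a difference of -1.28 ± 0.23 (limma, adjusted p = 0.001405). Armcx4 read 138 and 144 units in moribund C57BL/6 lungs, against 219 and 256 in 6 week C3H/HeJ lungs (-0.69 ± 0.16; limma, adjusted p = 0.008623). Armcx4 was thus lower than in C3H/HeJ even though moribund C57BL/6 lungs had more of it than C57BL/6 controls. Control C57BL/6 lungs were also below control C3H/HeJ lungs for Armcx4 (-1.84) and for Ajuba (-1.62). Ajuba differed by -0.72 ± 0.23 (limma, adjusted p = 0.0477) and the second Dpep1 probe set by -0.72 ± 0.17 (limma, adjusted p = 0.01147), while the first Dpep1 probe set did not pass (-0.65; limma, adjusted p = 0.06321).

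These calls against C3H/HeJ other than that of Bex2 depended on processing and on single arrays. Armcx4, Ajuba and the second Dpep1 probe set did not pass in the deposited scaling or with array weights. Ajuba also failed with an offset of 1, without a dim filter and with only the strains compared. Among the single arrays was the female 6 week C3H/HeJ array with the Gapdh ratio of 2.09. Its part in these calls, beyond the values without it, was not tested. Armcx4 did not pass without the female moribund array (-0.64, limma, adjusted p = 0.05586) or without the female 6 week C3H/HeJ array (-0.65, adjusted p = 0.07294). Ajuba did not pass without the male moribund array (-0.32, limma, adjusted p = 0.4397) or without the female 6 week C3H/HeJ array (-0.50, adjusted p = 0.3456). Dpep1 did not pass without the male moribund array (-0.65, limma, adjusted p = 0.06519), the male 6 week C3H/HeJ array (-0.70, adjusted p = 0.06002) or the female one (-0.74, adjusted p = 0.06132). Irx3 differed by -0.44 over all arrays by -1.39 without the male moribund array, where it passed (limma, adjusted p = 0.02901), and by 0.51 without the female one. Bex2 passed in both comparisons under all 15 alternatives tried, which included leaving out each array of the groups compared.

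Between the 2 strains that were not C57BL/6, 6 week A/J minus 6 week C3H/HeJ, 1 of 9 probe sets passed, where 1.10% of all probe sets did. Pdzrn3 read 105 and 106 units in A/J lungs, against 235 and 207 in C3H/HeJ lungs, a difference of -0.96 ± 0.19 (limma, adjusted p = 0.01411). It passed in 11 of 15 alternatives and not without the male A/J array (-0.99, limma, adjusted p = 0.107), the female A/J array (-0.93, adjusted p = 0.1517) or the male C3H/HeJ array (-0.83, adjusted p = 0.159). Marker sums in the groups compared were 3234 to 4138 units for endothelium in moribund C57BL/6 lungs, against 6259 to 6263 in 6 week A/J and 6987 to 7493 in 6 week C3H/HeJ lungs. For heart muscle they were 1542 to 2104 units in moribund C57BL/6 lungs, against 3943 to 4288 in 6 week A/J and 3622 to 4834 in 6 week C3H/HeJ lungs. Their part in these differences was not tested.

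**Figure D4:**
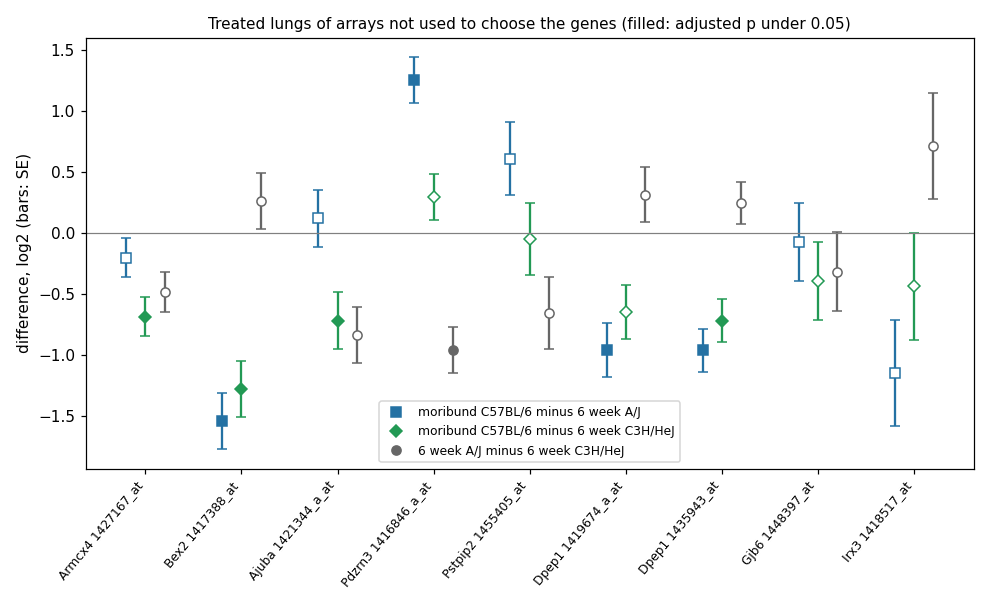
Log2 differences with standard errors for the 9 probe sets in comparisons whose arrays did not enter the rule that chose the genes, though earlier results of these data were known at that choice. The comparisons are moribund C57BL/6 minus 6 week A/J, moribund C57BL/6 minus 6 week C3H/HeJ and 6 week A/J minus 6 week C3H/HeJ. Filled points passed at an adjusted p under 0.05. Bex2 is lower in moribund C57BL/6 lungs against both strains, and Pdzrn3 is the filled point on the higher side (1.25 against A/J).

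Later stages of C57BL/6 kept the direction seen at 3 weeks for all 9 probe sets, as a description of arrays that share the controls. In moribund lungs the differences from control were -2.42 for Bex2, 1.30 for Armcx4, 0.93 for Ajuba, 1.04 for Pdzrn3, 0.88 for Pstpip2, -1.11 and -0.89 for Dpep1, -0.77 for Gjb6 and -1.78 for Irx3. Armcx4 was the member furthest from its 3 week level in moribund lungs (-0.53 ± 0.16), and its moribund arrays lay below both 3 week arrays. The single 6 week C57BL/6 array was further from controls than the 3 week arrays for Bex2 (-3.06) and nearer for Ajuba (0.20) and Irx3 (-0.44).

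The term for sex, which the choice of genes did not use, moved none of them past the test. Treated males mostly had a lower dose than treated females, so this term also holds dose and does not show sex alone. Of the 9 probe sets 0 passed for male minus female by limma and 0 had an unadjusted p under 0.05, where 0.0663% of all probe sets passed. Armcx4 was nearest, at -0.15 ± 0.07 (unadjusted p = 0.0546 by limma), and Bex2, also X-linked, differed by -0.06 ± 0.10.

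The 8 genes did not move as a single block over the 10 groups. As a description over 10 group means, which share arrays and their normalization, Bex2 and Dpep1 ran together (Pearson r = 0.856), as did Armcx4 and Ajuba (r = 0.753), while Pstpip2 and Irx3 ran opposite (r = -0.767). Armcx4 and Bex2, the X-linked pair, had r = -0.381. The genes on the array most like each member over the same means were Fxyd1 for Bex2 (r = 0.973), a regulator of the sodium pump, followed by Gsta3 (0.970), a glutathione transferase, and G0s2 (0.969), an inhibitor of fat breakdown. They were Arhgap9 (0.946), Zfand2a (0.919) and Slc39a6 (0.913) for Armcx4, Vamp3 (0.983), Psmc2 (0.971) and Atad3a (0.939) for Ajuba, and Serinc3 (0.971), Eef1e1 (0.953) and Tor1aip2 (0.942) for Pdzrn3. For Pstpip2 they were Asnsd1 (0.948), Arih2 (0.933) and Tamm41 (0.909). Dpep1 was most like Cyp4b1 (0.954), a lung cytochrome, then Wdsub1 (0.946) and Efnb1 (0.945), and Irx3 was most like Zfhx3 (0.952), another homeobox factor, then Cited2 (0.937) and Rnf214 (0.924). Gjb6 had the weakest matches, Mycn (0.854), Col13a1 (0.847) and Gata2 (0.819).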

How the data were processed

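Total RNA of pooled mouse lungs was hybridized to 1-colour Affymetrix arrays, 1 array per pool. The authors deposited a table of linear intensity values per probe set; the labels name no software for summarising or scaling them. The 64 control probe sets were left out, leaving 22626. Of these, 20380 carried 1 gene symbol in the platform annotation, 691 several and 1555 none; 20351 of the 20380 matched the RefSeq gene table of GRCm38.p6, which supplied coordinates. Intensities were quantile normalized between arrays and analysed as log2(intensity + 16), after the dimmest 33.3% of probe sets by mean were left out (15084 kept). A linear model in limma 3.58.1 (R 4.3.3) had a term for each of the 10 groups and for sex over 21 arrays, with 10 residual degrees of freedom, trended empirical Bayes moderation and two-sided tests. P-values were adjusted by Benjamini-Hochberg over all 15084 probe sets, and a call is an adjusted p under 0.05. The fit was also run on simulated data with independent normal noise and changes added to the moribund group only. That run left out the normalization and the dim filter, and its outcome is not used here. Probe sets, not genes, are the rows, and the number of arrays limits the precision.

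The genes named are all probe sets of the 8 genes, relatives and partners from fixed lists where they passed at 3 weeks in C57BL/6 (with Bex3, Irx1, Lnx1, Lnx2 and Gja1 added for their place in the lists) and the 3 genes most like each member. The genes, lists and markers were chosen with earlier results of these data known. Arrays were grouped by strain and stage from their labels. Alternatives covered scaling, offset, dim filter, sex term, probe sets per gene, arrays in the fit, array weights and threshold. Each array was also left out, only for the comparisons that its group entered, which for sex were all 21 arrays.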

Additional observations from a re-analysis of the deposited data

Results flagged for a closer look

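Among the 11 probe sets of the 8 genes, 2 had 1 array of the 4 A/J arrays at 3 weeks that stood apart, by a gap to the nearest array divided by the range of the group above Dixon's critical value for 4 arrays, which chance passes in about 5% of groups. On the Pstpip2 probe set above the dim filter, the male array at 100 mg/kg read 58.7 units and the other three lay between 90.1 and 92.4 (ratio 0.943). On a dim Pstpip2 probe set, the female array at 125 mg/kg read 23.1 units and the others 2.6 to 4.48 (ratio 0.870). The strains differed in the change of Bex4 at 3 weeks by the test of the difference itself. Bex4 read 127 and 124 units at 3 weeks, against 255 and 255 in C57BL/6 controls, and 203, 183, 194 and 167 at 3 weeks, against 185 and 173 in A/J controls, with a difference in change of -0.99 (limma, adjusted p = 0.03087).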

How the results depend on the processing

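The direction of the 3 week difference in C57BL/6 held under each alternative for the 9 tested probe sets of the 8 genes. In the other strains 7 differences changed sign under some alternative: in A/J those of Pdzrn3 (-0.025 in the deposited scaling), Ajuba, Irx3, Pstpip2 and the second Dpep1 probe set, and in C3H/HeJ those of Armcx4 and Irx3 (-0.21 without the female 3 week array, 1.20 without the male one). In the deposited scaling the median of all probe sets shifted by -0.18 in C57BL/6, -0.34 in A/J and -0.30 in C3H/HeJ at 3 weeks. That scaling left 594 calls for moribund C57BL/6 minus 6 week A/J (2 for the 8 genes), 576 minus 6 week C3H/HeJ (1) and 70 for 6 week A/J minus C3H/HeJ (0 by limma), where the 8 genes had 4, 4 and 1, and the lists of relatives had 5 at 3 weeks in C57BL/6 and 0 in A/J. Array weights left 1173 and 1016 calls for the moribund comparisons with A/J and C3H/HeJ, with 1 for the 8 genes against C3H/HeJ. With 1 probe set per gene there were 1413 calls against C3H/HeJ, 85 for A/J minus C3H/HeJ and 5 for sex, since fewer rows were tested. Fitting only the strains compared gave 1347 calls against C3H/HeJ, 2 of the 8 genes' probe sets for A/J minus C3H/HeJ and 3 relatives in C57BL/6.

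Relatives called in A/J at 3 weeks were 0 without a sex term, with 1 probe set per gene or, in an alternative chosen after seeing the data, with only the A/J 3 week arrays at 100 mg/kg (male) and 125 mg/kg (female). In C3H/HeJ they became 1 without a sex term, with 1 probe set per gene or with the dimmest 50% left out, and at a threshold of 0.10 there were 3. Single arrays were left out only for the comparisons that their group entered, and for sex all 21 were. With each array left out in turn, relatives called were 5 to 8 in C57BL/6, 0 to 1 in A/J and 0 to 3 in C3H/HeJ. It gave 990 to 1729 calls for moribund minus A/J (3 to 4 for the 8 genes), 1039 to 1821 minus C3H/HeJ (1 to 3), 75 to 121 for A/J minus C3H/HeJ (0 to 1) and 10 to 12 for sex (0 to 0); a group left with 1 array is assumed to vary like the others. The causes of these shifts were not tested unless stated. No paired analysis was possible because the arrays hold pools of different mice and replicate numbers only name arrays.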
